A study of Mus musculus with 18 samples.

Results

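Heat shock (HS) at 42°C for 135 min was compared with HS for 45 min in the 6 heated mRNA-seq libraries, of 18 in the series, that carry these labels, 3 at each time. The cells were NIH3T3 fibroblasts, an established mouse line, that stably expressed DD-GFP, a ligand-controlled FKBP-derived destabilizing domain fused to green fluorescent protein, and had been sorted for high fluorescence. S1, the ligand that keeps the domain folded, was present in every group, the control included. The control was 3 unheated libraries at 37°C, and 9 further libraries came from cells treated with tunicamycin (Tu), a blocker of N-linked glycosylation, for 45, 135 and 405 min. The labels number the replicates from 1 to 3 and do not say whether they came from separate cultures, so the p-values measure the spread between these libraries, part of which may be technical. The comparison asks which transcripts went on changing, which levelled off and which turned back between the early and the later time in the heat.

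Heat unfolds proteins in the cytosol and nucleus, and the heat shock response (HSR) is the transcriptional answer to it. Heat shock factor HSF1, held inactive by chaperones in unstressed cells, forms trimers and binds heat shock elements, which are arrays of inverted GAA repeats in the promoters of chaperone genes. Unfolded proteins of the endoplasmic reticulum (ER) are dealt with by a separate pathway, the ER unfolded protein response (erUPR), and phosphorylation of eIF2α sets off the integrated stress response, whose factor ATF4 drives Atf3, Trib3 and Fgf21. Immediate-early genes such as Egr1 and Dusp1 have short-lived transcripts that are made within minutes of a stimulus.

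The files held 54261116 to 65532785 reads on genes at 45 min, 54780828 to 62291185 at 135 min and 40134634 to 53424821 in the control. Levels are given as CPM, counts scaled to library size and then by the trimmed mean of M-values, and each level is therefore a share of the sequenced RNA. Libraries of one group were not alike. On the first principal component, which held 65.88% of the variance over 9 libraries and whose gene loadings followed GC content (Spearman's rho across genes = 0.65), replicate 3 at 45 min (-42.23) and replicate 1 at 135 min (-34.44) lay among the controls (-62.92 to -34.37). The other 4 heated libraries lay between 6.977 and 87.27. The second component, with 15.88% of the variance, put the 3 libraries at 135 min (29.57 to 43.13) apart from all others (-33.88 to -2.337). Summed fibroblast markers were 41840 to 59820 CPM at 45 min and 47210 to 64340 CPM at 135 min. Those of leukocytes ranged from 6.229 to 10.7 CPM and from 7.24 to 10.07 CPM. The 7 epithelial markers summed to 0.6867 to 0.8711 CPM at 45 min and 1.311 to 1.67 CPM at 135 min, and the 6 endothelial markers to 0.516 to 0.9046 CPM and 0.7849 to 1.036 CPM. In all heated libraries 1 leukocyte and 1 endothelial marker stood at 0, and the part of these markers in the results was not tested.

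From 45 to 135 min of heat, 77 genes rose and 39 fell among the 12731 that were tested (edgeR's quasi-likelihood test, Benjamini-Hochberg adjusted p under 0.05), which is 0.605% and 0.306% of them. The median log2 fold change of all genes was 0.03. Log2 fold changes of the genes that passed ran from 0.96 to 4.21 for the higher and from -3.25 to -0.96 for the lower ones. In all 116 the 3 libraries of one time lay beyond the 3 of the other, as they did in 9.43% of all genes on the higher and 8.32% on the lower side. Because bulk RNA was sequenced, more transcript per cell and more cells that carry the transcript cannot be told apart.

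The genes were sorted by course, using their fitted change from control at 45 min and a limit of 0.5 on the log2 scale. Of the 77 that rose, 28 were already above control at 45 min and went higher (rose further), 43 had stayed within the limit (late rise), and 6 had been below control (recovered). As a class these 6 did not stop at control. Their median log2 fold change from control was -0.58 at 45 min and 1.78 at 135 min, and 5 passed as higher than control at 135 min. Of the 39 that fell, 16 had been above control at 45 min (fell back), 22 had stayed within the limit (late fall), and 1, March7, a ubiquitin ligase gene, had been below it (fell further). The names describe fitted values: none of the 116 passed the test of 45 min against control, where 2 genes rose, 0.0157% of those tested, and 0 fell (edgeR). At 135 min against control 630 genes rose (4.95%) and 340 fell (2.67%), and these held 74 of the 77 and 29 of the 39. The contrasts share libraries and are given side by side only to place each gene.

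**Figure D1:**
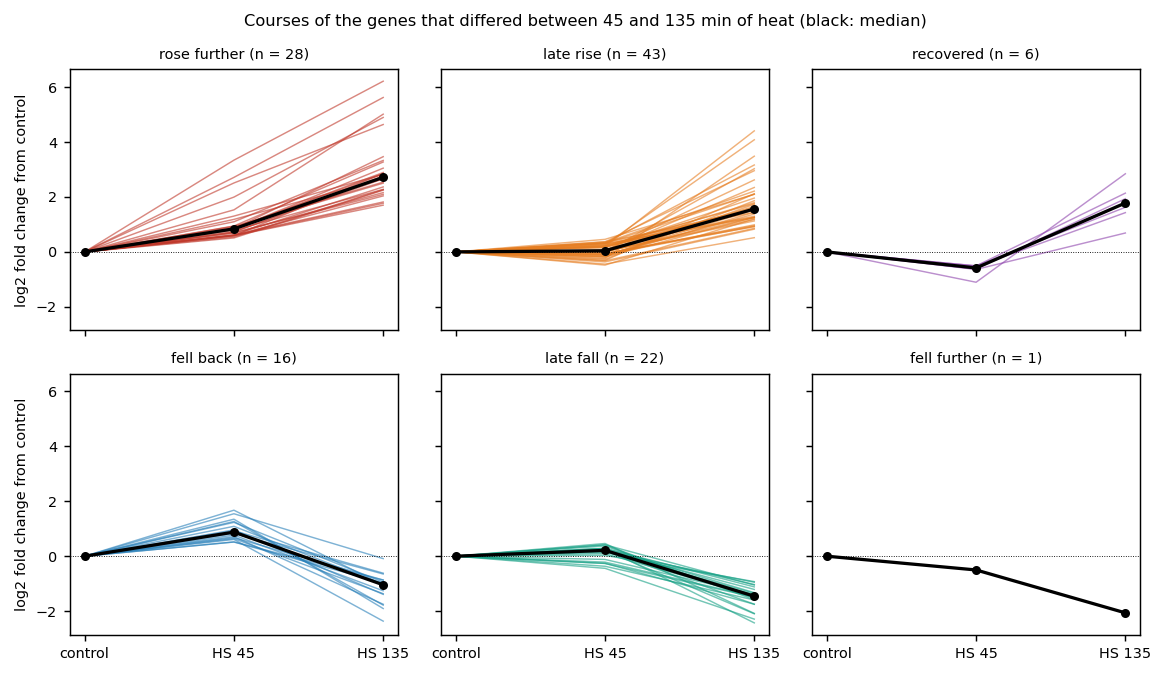
Fitted log2 fold change from control (y axis) at control, HS 45 min and HS 135 min (x axis) for the 116 genes that differed between 45 and 135 min, in 6 panels by course class, with the class median in black. The median of the 28 genes that rose further went from 0.84 to 2.72, that of the 43 late-rising genes from 0.04 to 1.56, and that of the 16 genes that fell back from 0.88 to -1.04.

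Some cytosolic chaperone genes rose between the times, among them HSC70 and members of the HSP110 family that recharge HSP70 with ATP, whereas most members of the cytosolic chaperone lists did not pass. Hsph1, the HSP110 nucleotide exchange factor of HSP70 (chromosome 5 of mm9, 150419420 to 150438890), had 152, 224 and 201 CPM in the control, 481, 279 and 476 CPM at 45 min and 2595, 1186 and 2029 CPM at 135 min. The lowest library at 135 min stood above the highest at 45 min, and the log2 fold change between the times was 2.23 ± 0.35 (SE; adjusted p = 0.0346, edgeR). Hspa8, the constitutive HSC70 (chromosome 9, 40609356 to 40613282), had 3898, 4088 and 4391 CPM at 45 min, against 4016 to 4640 CPM in the control, and 9433, 8493 and 8177 CPM at 135 min. It rose late, by 1.08 ± 0.20 on the log2 scale (adjusted p = 0.0463, edgeR). Hspa4l, a further HSP110 family member, also rose late, from 29.3, 24.7 and 50.3 CPM to 209, 91.7 and 156 CPM (log2 fold change 2.13, adjusted p = 0.0441, edgeR). In the list of HSP70 and HSP110 genes 3 of 12 rose and 0 fell, 6 were higher and 0 lower at an unadjusted p under 0.05 (6.72% and 6.63% of all genes), and the median log2 fold change was 0.88 against 0.03 for all genes.

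The inducible HSP70 genes had the highest fitted levels over control of the HSP70 list, and their difference between the times did not pass. Hspa1b (chromosome 17, 35093374 to 35096183) had 5.22 to 6.02 CPM in the control, 268, 213 and 43.9 CPM at 45 min, and 251, 1091 and 1160 CPM at 135 min. Replicate 1 at 135 min thus lay within the range at 45 min, and replicate 3 at 45 min was the lowest of the heated libraries. The fitted difference was 2.25 ± 0.69 on the log2 scale (adjusted p = 0.189, edgeR). Against control the level at 135 min was higher by 7.24 on the same scale (adjusted p = 0.00515, edgeR), whereas the 4.99 at 45 min did not pass (adjusted p = 0.127). Hspa1a, whose transcript is nearly identical, gave 2.27 (adjusted p = 0.189), and how reads were divided between the 2 copies is uncertain.

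The same pair of libraries was lowest in its group for the co-chaperone Bag3 and the small heat shock protein gene Hspb1. Bag3 had 588, 590 and 241 CPM at 45 min and 736, 2107 and 1980 CPM at 135 min, without overlap (log2 fold change 1.77 ± 0.45, adjusted p = 0.117, edgeR). Hspb1 was near the detection limit in the control (0.0171 to 0.168 CPM) and had 1.51, 0.728 and 0.0555 CPM at 45 min and 11.6, 54.2 and 60.8 CPM at 135 min. Its log2 fold change of 5.80 ± 1.12 was the largest of all genes tested and lay just outside the limit (adjusted p = 0.0533). Hspb8, the small heat shock protein that binds Bag3, did pass: 107, 88.1 and 116 CPM at 45 min became 264, 249 and 270 CPM at 135 min, a log2 fold change of 1.33 ± 0.19 (adjusted p = 0.0301). Of the 14 tested small heat shock proteins and exchange factors 1 rose and 0 fell (0.605% and 0.306% of all genes), with a median of 0.18. At an unadjusted p under 0.05, 5 were higher and 0 lower (6.72% and 6.63% of all genes).

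J-domain proteins, which hand clients to HSP70, split. Dnaja4 had 4.79 to 5.54 CPM in the control, 25.4, 24.7 and 11.5 CPM at 45 min and 83.8, 196 and 180 CPM at 135 min, and rose further by 2.90 ± 0.40 on the log2 scale (adjusted p = 0.0301, edgeR). Dnajb1, the main cytosolic partner of inducible HSP70, was 1 of the 2 genes that rose at 45 min against control, by 1.65 (adjusted p = 0.0327). It went from 195, 204 and 188 CPM at 45 min to 303, 317 and 337 CPM at 135 min. These libraries did not overlap, but the fitted 0.71 did not pass (adjusted p = 0.0925). Dnajc27, a small GTPase with a J domain, fell late, from 11.4, 12.4 and 11.7 CPM to 5.03, 5.14 and 4.72 CPM (log2 fold change -1.26, adjusted p = 0.0321). In all 1 of 25 J-domain genes rose and 1 fell (0.605% and 0.306% of all genes), and the list's median was 0.16. At an unadjusted p under 0.05, 5 were higher and 1 lower (6.72% and 6.63% of all genes).

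Among HSP90 and its cofactors, 6 of 19 were higher and 3 lower at an unadjusted p under 0.05 (6.72% and 6.63% of all genes). By the adjusted p 1 rose and 0 fell (0.605% and 0.306% of all genes), with a median of 0.09. The gene was Ahsa2, related to the activator of the HSP90 ATPase, with 36, 38.1 and 39.8 CPM at 45 min and 96.2, 98.1 and 95.5 CPM at 135 min (log2 fold change 1.35, adjusted p = 0.0461, edgeR). Stip1, the adaptor between HSP70 and HSP90, lay just outside the limit at 1.20 ± 0.23 (adjusted p = 0.0502). Hsp90aa1 had 389, 146 and 911 CPM at 45 min and 1920, 433 and 1268 CPM at 135 min, which overlap, and gave 1.32 ± 0.67 (adjusted p = 0.45). Mitochondrial chaperones had 2 of 17 higher and 0 lower at an unadjusted p under 0.05, with a median of 0.01, and gave 1 rise. It was Hspe1, the HSP10 lid of the mitochondrial chaperonin (chromosome 1, 55144992 to 55148161), which went from 108, 136 and 188 CPM to 504, 519 and 584 CPM, with 115 to 194 CPM in the control (log2 fold change 1.89 ± 0.27, adjusted p = 0.0321). Its partner Hspd1 was at 337, 322 and 496 CPM and then at 883, 585 and 842 CPM, a difference that did not pass (adjusted p = 0.237). Of the 8 TRiC chaperonin subunits 0 passed in edgeR's quasi-likelihood test and 1 had an unadjusted p under 0.05.

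**Figure D2:**
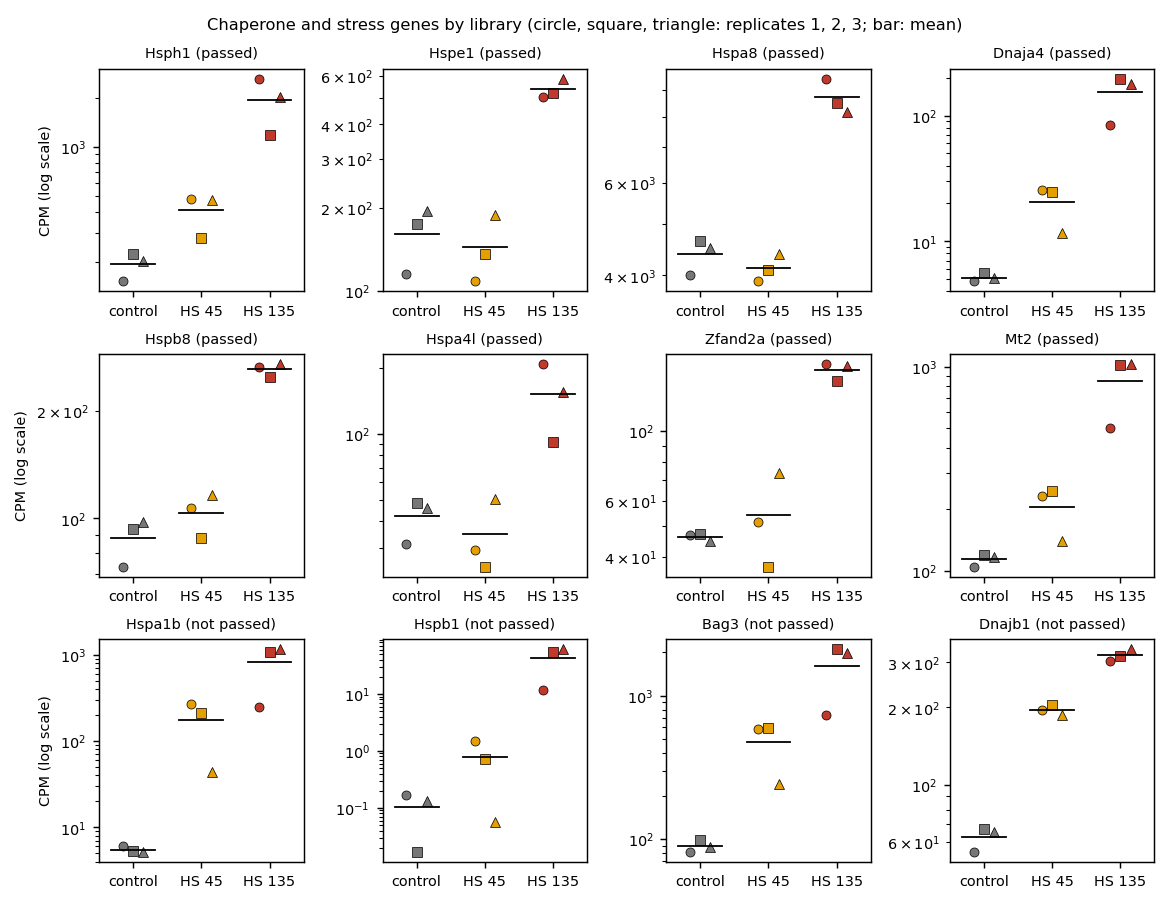
CPM on a log axis in the control, HS 45 min and HS 135 min libraries for 12 chaperone and stress genes, 1 panel per gene, with symbols for replicates 1 to 3 and a bar at the mean, and with the outcome of the test of 135 against 45 min above each panel. For Hspa1b, Hspb1 and Bag3 the lowest points of the heated groups are replicate 3 at 45 min and replicate 1 at 135 min, whereas Hspe1, Hspb8 and Zfand2a are tight at 135 min.

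As a share of the reads on genes, the 99 genes of the 6 chaperone lists made up 1.86%, 1.62% and 2.27% at 45 min and 3.96%, 3.07% and 3.50% at 135 min, against 1.65%, 2.33% and 2.36% in the control. The HSP70 and HSP110 list alone went from 0.511% ± 0.075 to 1.19% ± 0.19 (SD, n = 3). Per length, in the authors' RPKM, Hspa8 and Hsp90ab1 stood first and second of 95 chaperone genes at both times, with means of 1566 and 1440 RPKM at 45 min and 3272 and 2620 RPKM at 135 min. Below them the order changed. Hsph1 moved from rank 16 to rank 7 and Hspa1b from rank 31 to rank 11, with 224 ± 127 RPKM at 135 min.

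Heat shock elements were looked for in the promoters of these genes, taken from RefSeq (GRCm38.p6) as 250 bases before to 50 after the start and matched by symbol for 10059 of the genes tested, any listed promoter of a gene counting. The search was for GAANNTTC or TTCNNGAA, a pair of inverted GAA units that reads the same way on both strands. The pair was found in 15 of 67 promoters of genes that rose (22.4%) and in 6 of 33 of genes that fell (18.2%), and in 13.8% of genes tested and 15.1% of all 32851 promoters in the table. Of 75 chaperone genes 23 held it (30.7%), and of the 6 chaperones that rose and had an entry, 4 did. Stretches with a match upstream of the start are shown for 4 genes that rose and for Hspa1b and Hspb1, with the matched letters in capitals and 12 bases on each side. They lie at chr5:149636350-149636381 on the minus strand (Hsph1), chr1:55088047-55088088 on the plus strand (Hspe1), chr9:54699457-54699526 on the plus strand (Dnaja4), chr5:139484668-139484699 on the minus strand (Zfand2a), chr17:34959323-34959354 on the minus strand (Hspa1b) and chr5:135887790-135887841 on the plus strand (Hspb1).
Hsph1: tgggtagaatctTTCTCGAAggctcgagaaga
Hspe1: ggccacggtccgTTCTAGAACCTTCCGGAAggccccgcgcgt
Dnaja4: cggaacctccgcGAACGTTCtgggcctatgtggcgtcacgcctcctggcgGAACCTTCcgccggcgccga
Zfand2a: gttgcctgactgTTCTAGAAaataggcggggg
Hspa1b: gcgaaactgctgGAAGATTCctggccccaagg
Hspb1: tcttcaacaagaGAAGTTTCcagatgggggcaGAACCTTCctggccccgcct
The Hspe1 stretch holds 3 overlapping matches in one run, and Dnaja4 and Hspb1 hold 2 separate ones. A match is a description of the letters in this window, and binding was not measured here.

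Of 5 zinc-handling genes 2 rose, both of them metallothioneins, and 0 fell (0.605% and 0.306% of all genes), with a median of 0.46. Mt2, a metallothionein that binds zinc and other metals, had 105 to 120 CPM in the control, 233, 245 and 140 CPM at 45 min and 501, 1014 and 1028 CPM at 135 min, and rose further by 2.04 ± 0.32 on the log2 scale (adjusted p = 0.037, edgeR). Mt1, its neighbour on chromosome 8, went from 1289, 1315 and 1004 CPM to 2805, 4607 and 3844 CPM (log2 fold change 1.64, adjusted p = 0.0343). Slc30a1, the zinc exporter that shares the transcription factor MTF-1 with them, did not pass between the times and was the 1 gene that levelled off, a course open only to the 2 genes that had passed at 45 min against control. With all 18 libraries in the fit 850 genes met that definition. It had 10.6 to 12.1 CPM in the control, 34.7, 35.1 and 32.8 CPM at 45 min, where it passed against control (log2 fold change 1.62, adjusted p = 0.0327), and 42.4, 39.6 and 38.7 CPM at 135 min. Its change between the times was 0.23 ± 0.17 (adjusted p = 0.645), with an interval inside 1 log2 unit on either side. Zfand2a, which encodes a stress-induced partner of the proteasome, rose late from 51.4, 37.2 and 73.9 CPM to 163, 144 and 161 CPM (log2 fold change 1.53, adjusted p = 0.037). The 34 proteasome subunits gave 0 calls in edgeR and a median of 0.01. Of the 34, 0 were higher and 1 lower at an unadjusted p under 0.05 (6.72% and 6.63% of all genes).

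Of 27 ER chaperone and erUPR genes 3 rose and 0 fell, 13 were higher and 0 lower at an unadjusted p under 0.05 (6.72% and 6.63% of all genes), and the median was 0.53. Herpud1, which serves ER-associated degradation, had 47.4 to 63.1 CPM in the control, 124, 147 and 108 CPM at 45 min and 333, 403 and 319 CPM at 135 min (log2 fold change 1.47 ± 0.20, adjusted p = 0.0301, edgeR). Hspa5, the ER chaperone BiP, stayed at 637, 662 and 598 CPM at 45 min, against 626 to 702 CPM in the control, and then rose to 1278, 1352 and 1212 CPM (1.02 ± 0.17, adjusted p = 0.0394). Creld2, an ER-resident protein, went from 68, 59.4 and 52.7 CPM to 135, 132 and 100 CPM (adjusted p = 0.0454).

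Among 23 integrated stress response genes 3 rose and 0 fell (0.605% and 0.306% of all genes), and the median was 0.48. Of the 23, 7 were higher and 1 lower at an unadjusted p under 0.05 (6.72% and 6.63% of all genes). Fgf21, a stress-induced hormone, had 0.426 to 0.677 CPM in the control, 3.15, 3.93 and 2.22 CPM at 45 min and 7.85, 18.3 and 14.5 CPM at 135 min (log2 fold change 2.13 ± 0.38, adjusted p = 0.0441, edgeR). Trib3, a pseudokinase, went from 66.6, 87.8 and 45.7 CPM to 153, 303 and 204 CPM (1.72, adjusted p = 0.0454), and Slc7a1, a cationic amino acid transporter, from 250, 203 and 221 CPM to 455, 519 and 412 CPM (1.04, adjusted p = 0.0454). Ddit3, which encodes CHOP, was at 185, 222 and 132 CPM and then at 246, 490 and 295 CPM, without overlap but at an adjusted p of 0.19. Atf3, on the list of AP-1 and ATF factors, was the 1 of 12 there that rose: it had 0.83 to 1.17 CPM in the control, 9.66, 5.99 and 3.79 CPM at 45 min and 26.2, 61 and 58.7 CPM at 135 min (2.91 ± 0.43, adjusted p = 0.0321). Fos gave 7.97, 7.47 and 3.11 CPM and then 1.34, 5.1 and 4.63 CPM, which overlap, and Jun did not pass either (-0.54, adjusted p = 0.463).

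The smallest p-values of the comparison lay outside the classical HSR lists. Clu, which encodes the secreted chaperone clusterin (chromosome 14, 66587320 to 66600382), had 2.18 to 2.53 CPM in the control, 7.78, 6.22 and 5.99 CPM at 45 min and 44.1, 105 and 75 CPM at 135 min. It rose further by 3.48 ± 0.33 on the log2 scale (adjusted p = 0.0212, edgeR). Slc1a7, a glutamate transporter gene, was below control at 45 min (0.219, 0.146 and 0.25 CPM against 0.426 to 0.479 CPM) and then reached 1.96, 4.63 and 3.09 CPM (3.95 ± 0.40, adjusted p = 0.0212). Abcc5, an ATP-driven exporter of organic anions, had 53.1, 49.4 and 64.2 CPM and then 171, 187 and 156 CPM (1.62, adjusted p = 0.0212). In the edgeR fit of all 18 libraries Abcc5 did not pass (adjusted p = 0.158). Its tunicamycin libraries split within groups, with 11.5, 12.8 and 58.3 CPM under the label 45 min and 59.8, 14.8 and 17.4 CPM under 135 min. Aff1, a scaffold of the super elongation complex of RNA polymerase II, went from 84.2, 87.2 and 67.8 CPM to 239, 315 and 244 CPM (1.74, adjusted p = 0.0212). P2rx7, an ATP-gated ion channel, had at most 0.208 CPM in control and 45 min libraries and 1.33, 3.28 and 4 CPM at 135 min (4.21 ± 0.51, adjusted p = 0.0237). Many of these genes were low: 26 of the 77 had a mean under 5 CPM at 135 min, and 4 of the 39 that fell had a mean under 5 CPM at 45 min.

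Secreted factors were among the late and further-rising genes. Cxcl10, a chemokine, had 0.383, 0.0624 and 0.18 CPM at 45 min and 2.75, 3.96 and 2.28 CPM at 135 min, a late rise of 3.82 ± 0.57 on the log2 scale (adjusted p = 0.0321, edgeR). It was the 1 of 20 chemokine, cytokine and NF-kB feedback genes that rose, and 0 fell (0.605% and 0.306% of all genes). Of the 20, 4 were higher and 0 lower at an unadjusted p under 0.05 (6.72% and 6.63% of all genes). Ccl2, also on this list, lay just outside the limit (1.76, adjusted p = 0.0574, edgeR). Vegfa, an angiogenic growth factor, and Wnt1, a Wnt ligand, were picked out after their values were seen. Vegfa went from 96.1, 98.7 and 69.5 CPM to 166, 245 and 186 CPM (1.17, adjusted p = 0.0454), and Wnt1 from 0.602, 0.499 and 0.194 CPM to 1.78, 3.81 and 3.86 CPM (2.87, adjusted p = 0.0454).

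The lists of long noncoding RNAs and zinc finger genes had mostly positive fitted changes with few calls. Across tested genes with a GC value, the log2 fold change fell with GC content (Spearman's rho = -0.21). The part of GC content in these lists was not tested. Malat1, a nuclear RNA, had 233, 271 and 272 CPM at 45 min, below its control range of 327 to 375 CPM, and 569, 469 and 473 CPM at 135 min (log2 fold change 0.96 ± 0.17, adjusted p = 0.0461, edgeR). Kcnq1ot1, an antisense RNA within Kcnq1, went from 9.88, 10.8 and 15.2 CPM to 35, 24.6 and 30.4 CPM (1.33, adjusted p = 0.0471), and reads from the 2 strands may not have been kept apart. Of 16 noncoding RNAs 2 rose and 0 fell (0.605% and 0.306% of all genes), with a median of 0.59. The fitted change was positive in 15 of them, against 52.6% of all genes. Of 261 genes with Zfp symbols 1 rose, Zfp786, and 0 fell (0.605% and 0.306% of all genes). The fitted change was positive in 182 of them, with a median of 0.28. Of 26 p53 targets 0 passed in edgeR, 10 were higher and 0 lower at an unadjusted p under 0.05 (6.72% and 6.63% of all genes), and the median was 0.55. Cdkn1a, the cell cycle inhibitor p21, was at 81.6, 72.7 and 105 CPM and then at 173, 141 and 158 CPM (0.87, adjusted p = 0.0752).

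Some immediate-early transcripts fell between the times. Dusp1, a MAP kinase phosphatase, came back to around its control level: it had 50.5 to 59.7 CPM in the control, 205, 166 and 100 CPM at 45 min and 35.8, 66.3 and 49.7 CPM at 135 min. It fell back, with a log2 fold change of -1.63 ± 0.31, at an adjusted p of 0.04999 that only just met the limit of 0.05 (edgeR). Egr1, an immediate-early transcription factor, was at 181, 165 and 158 CPM at 45 min, against 116 to 171 CPM in the control, and at 59, 91 and 60.4 CPM at 135 min (log2 fold change -1.26 ± 0.23, adjusted p = 0.0461). Its relative Egr3 had 12.6, 16.9 and 7.39 CPM and then 2.61, 4.57 and 3.9 CPM, at an adjusted p of 0.0614. Of 14 Egr, Nr4a and Ier genes 1 fell and 0 rose, 7 were lower and 1 higher at an unadjusted p under 0.05 (6.63% and 6.72% of all genes), with a median of -0.62, the lowest of the lists. Of 16 MAP kinase phosphatases and related feedback genes 1 fell, and 5 were lower and 0 higher by that measure, with a median of -0.24.

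Single matrix and chromatin genes fell. Cyr61, a secreted target of SRF and YAP (chromosome 3, 145309935 to 145312949), had 160 to 194 CPM in the control, 337, 399 and 301 CPM at 45 min and 98.5, 131 and 126 CPM at 135 min. It fell back, with a log2 fold change of -1.54 ± 0.20 (adjusted p = 0.0301, edgeR), to below every control library, although the difference from control did not pass (-0.62, adjusted p = 0.0828). Thbs1, the matrix protein thrombospondin (chromosome 2, 117937658 to 117952869), was at 745, 651 and 781 CPM and then at 317, 323 and 289 CPM (-1.23, adjusted p = 0.0441). Hmga2, an architectural chromatin protein, fell late from 602, 581 and 455 CPM to 185, 204 and 177 CPM (-1.53, adjusted p = 0.0321). Of 21 SRF and YAP targets 1 fell, and of 25 collagens and matrix genes 1 fell (0.306% of all genes), with medians of -0.15 and 0.14. At an unadjusted p under 0.05, 2 and 2 were lower and 0 and 1 higher (6.63% and 6.72% of all genes).

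The list of SR proteins and hnRNPs, nuclear RNA-binding proteins that package and splice transcripts, held 3 falling genes, more than any other list. Hnrnpu, a nuclear scaffold protein, had 466 to 630 CPM in the control, 808, 1011 and 633 CPM at 45 min and 355, 268 and 312 CPM at 135 min (log2 fold change -1.39 ± 0.24, adjusted p = 0.0408, edgeR). Hnrnpa0, which binds AU-rich elements, went from 489, 667 and 228 CPM to 89.1, 121 and 109 CPM (-2.12, adjusted p = 0.039), and Hnrnpd, the mRNA decay factor AUF1, from 358, 437 and 213 CPM to 105, 131 and 125 CPM (-1.48, adjusted p = 0.0454). All 3 fell back from above control, and in all 3 replicate 3 was the lowest library at 45 min. Of 35 SR proteins and hnRNPs 3 fell and 0 rose (0.306% and 0.605% of all genes), with a median of -0.09. At an unadjusted p under 0.05, 9 were lower and 0 higher (6.63% and 6.72% of all genes). Eif1, the start codon selection factor, had 366, 444 and 229 CPM and then 119, 136 and 102 CPM (-1.54, adjusted p = 0.0408) and was the 1 of 55 translation initiation factors that passed. Cnot6, a deadenylase of the CCR4-NOT complex, fell late from 25.5, 33.4 and 18.1 CPM to 5.88, 6.09 and 7.36 CPM (-1.99, adjusted p = 0.0321).

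Cox5a, a subunit of cytochrome c oxidase (chromosome 9, 57369039 to 57380233), had the smallest p of the falling genes. It had 153 to 223 CPM in the control, 223, 297 and 128 CPM at 45 min and 34.1, 31.7 and 33.1 CPM at 135 min, so that the level at 135 min was low and tight (log2 fold change -2.71 ± 0.31, adjusted p = 0.0237, edgeR). Cox11, an assembly factor of the same enzyme, went from 9.59, 12.2 and 7.28 CPM to 3.2, 2.84 and 3.11 CPM (-1.67, adjusted p = 0.0321). Of 76 oxidative phosphorylation subunits 1, Cox5a, fell and 0 rose (0.306% and 0.605% of all genes), with a median of -0.0004. Of the 76, 2 were higher and 7 lower at an unadjusted p under 0.05 (6.72% and 6.63% of all genes). Scand1, a SCAN domain gene, had the next smallest p, with 89.3, 116 and 46.5 CPM and then 8.49, 12 and 9.98 CPM (-3.04, adjusted p = 0.0237). Ptp4a1, a small phosphatase gene, went from 7.36, 8.75 and 4.93 CPM to 1.01, 0.698 and 0.487 CPM (-3.25, adjusted p = 0.0301).

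**Figure D3:**
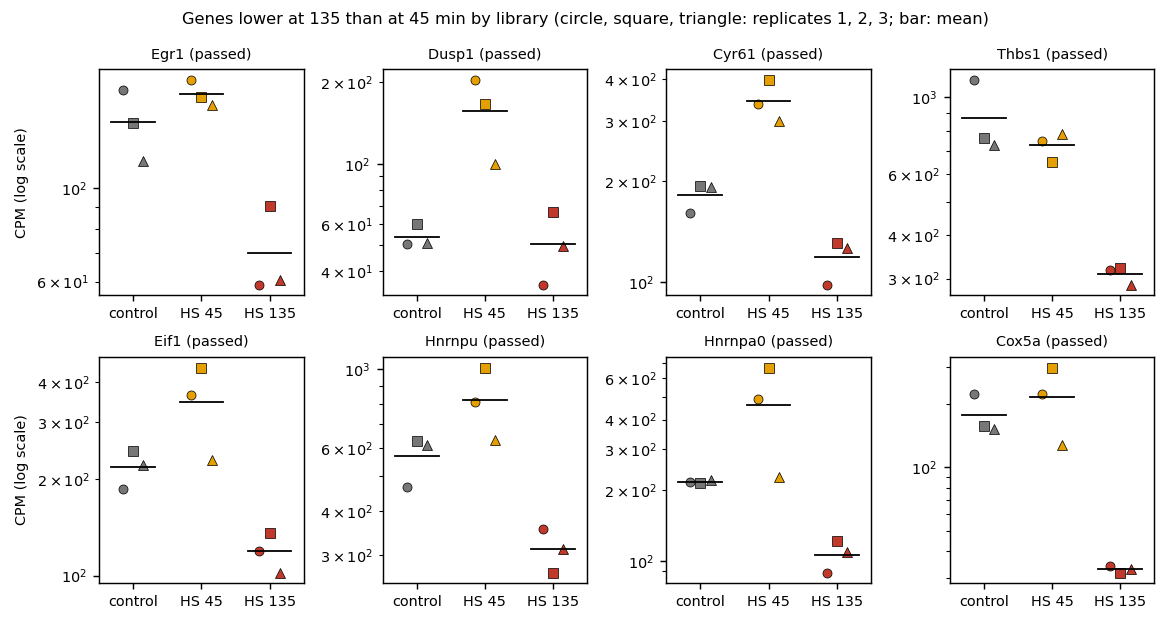
CPM on a log axis in the control, HS 45 min and HS 135 min libraries for 8 genes that fell between the times, with symbols for replicates 1 to 3 and a bar at the mean. Dusp1 came back to around its control libraries, Cyr61 lay below them, and in Hnrnpa0, Hnrnpu and Eif1 replicate 3 at 45 min lies near the control libraries.

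Groups that every cell uses gave few calls, as did the genes tested as a whole, of which 0.605% rose and 0.306% fell. At an unadjusted p under 0.05 the shares of all genes were 6.72% higher and 6.63% lower. Of 84 cytosolic ribosomal protein genes and of 35 ribosome biogenesis genes 0 passed in edgeR, with 2 higher and 4 lower, and 0 and 0, at an unadjusted p under 0.05, and medians of 0.07 and -0.01. Of 24 mitosis genes 0 passed, and 0 were higher and 3 lower by that measure. At 135 min against control 6 of the 24 passed as lower and 0 as higher in edgeR (2.67% and 4.95% of all genes). Cdc20, an activator of the anaphase-promoting complex, was at 325, 285 and 198 CPM and then at 98.4, 142 and 113 CPM (log2 fold change -1.19, adjusted p = 0.0545). The 20 cholesterol synthesis genes, 16 glycolysis genes and 21 NRF2 targets gave 0 calls as well in edgeR, with 1, 1 and 3 higher and 0, 2 and 2 lower at an unadjusted p under 0.05. Hmox1, heme oxygenase, was at 230, 244 and 128 CPM and then at 267, 546 and 429 CPM (1.04, adjusted p = 0.189).

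**Figure D4:**
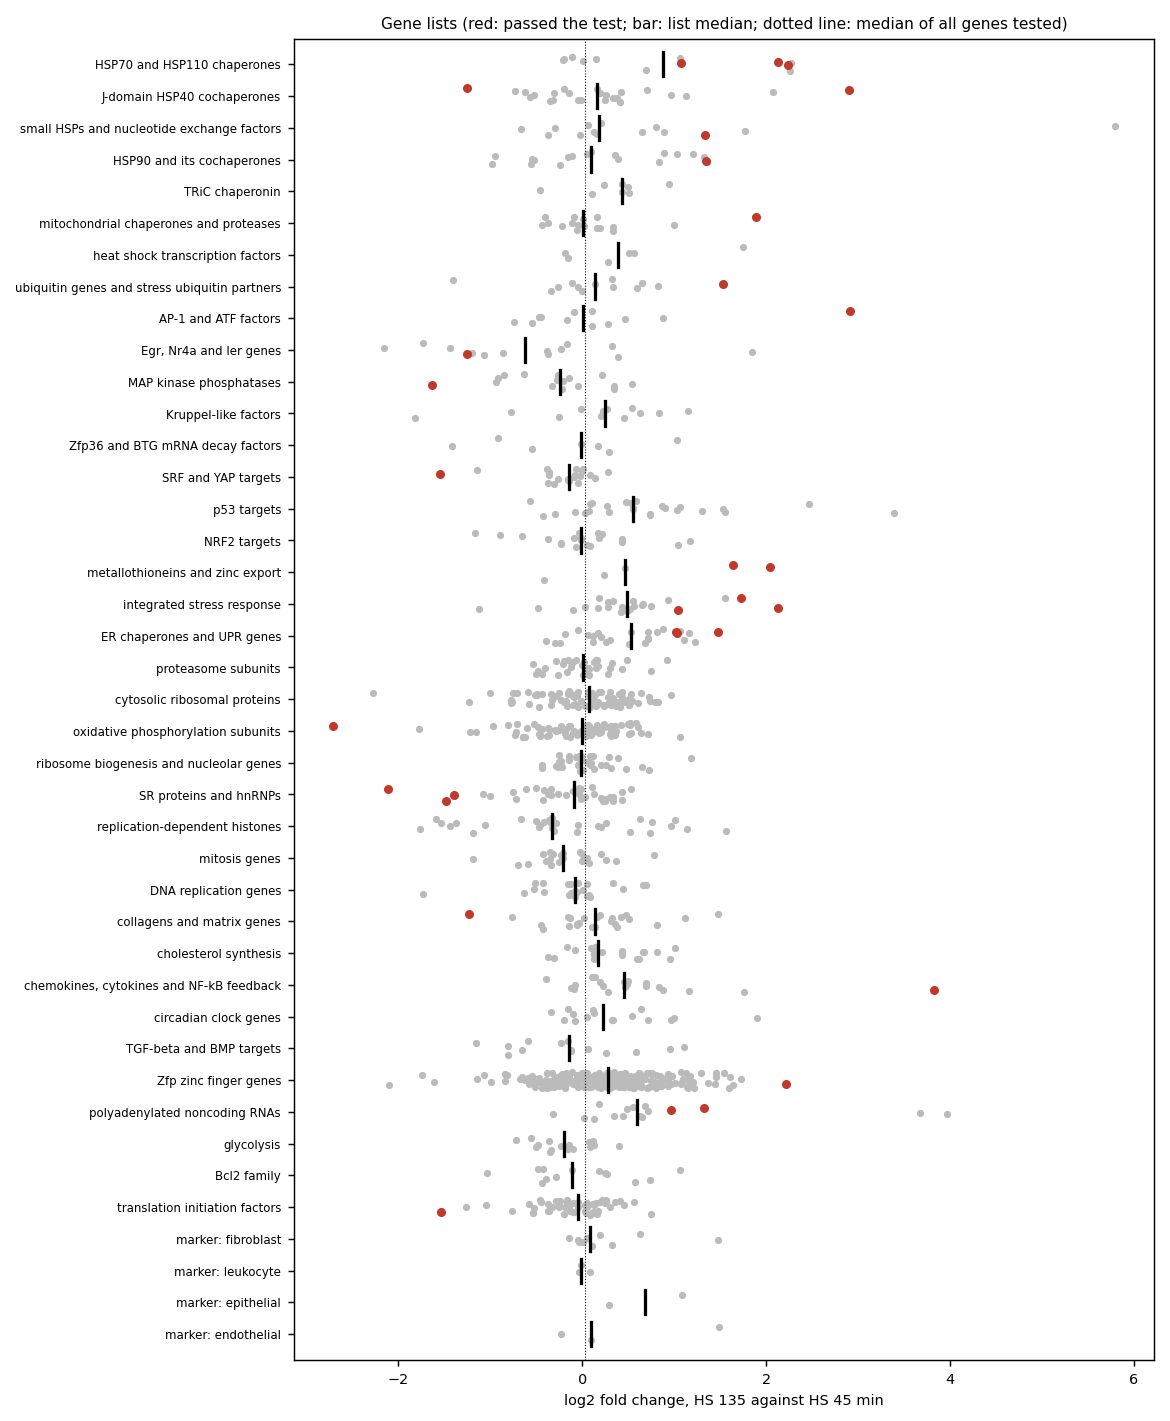
Log2 fold change of HS 135 against HS 45 min (x axis) for the tested members of each gene list (rows), with members that passed in red, the list median as a bar and the median of all genes as a dotted line. The HSP70 and HSP110 list has a median of 0.88 with 3 of 12 members passing, and the Egr, Nr4a and Ier list lies lowest at -0.62.

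The labelled tunicamycin libraries at 45 and 135 min give the change over the same interval under another stress, with no library shared. Their time labels need care. Herpud1 had means of 276 ± 11.6 CPM in libraries labelled 45 min, 101 ± 22.2 CPM in those labelled 135 min and 1554 ± 61.4 CPM at 405 min (SD, n = 3; all 18 libraries scaled together), with 58.4 ± 8.26 CPM in the control. Hspa5 had 935 ± 17.2, 415 ± 79.1 and 9012 ± 252 CPM in the same order, with 692 ± 40.4 CPM in the control. Atf3 and Ddit3 had the same order, and Egr1 stood at 115 ± 18.3 CPM under the label 45 min and 674 ± 30.5 CPM under the label 135 min. Whether these 2 labels were exchanged cannot be told from the files. As labelled, the HS change exceeded the Tu change in 406 genes (3.19%) and fell below it in 329 (2.58%) (edgeR, interaction term). With the labels exchanged the counts were 115 and 111, and 47 and 36 genes passed in the same direction either way. Clu was one of them: it had 6.98 ± 1.02 and 78.1 ± 31.7 CPM in the heat and 3.56 ± 0.548 and 4.40 ± 0.837 CPM under the tunicamycin labels. Its difference was 3.18 as labelled and 3.79 with the labels exchanged (adjusted p = 0.000224 and 0.000479). For Hsph1 the means under tunicamycin were 136 and 149 CPM, and the difference from the HS change was 2.10 as labelled (adjusted p = 0.00302).

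**Figure D5:**
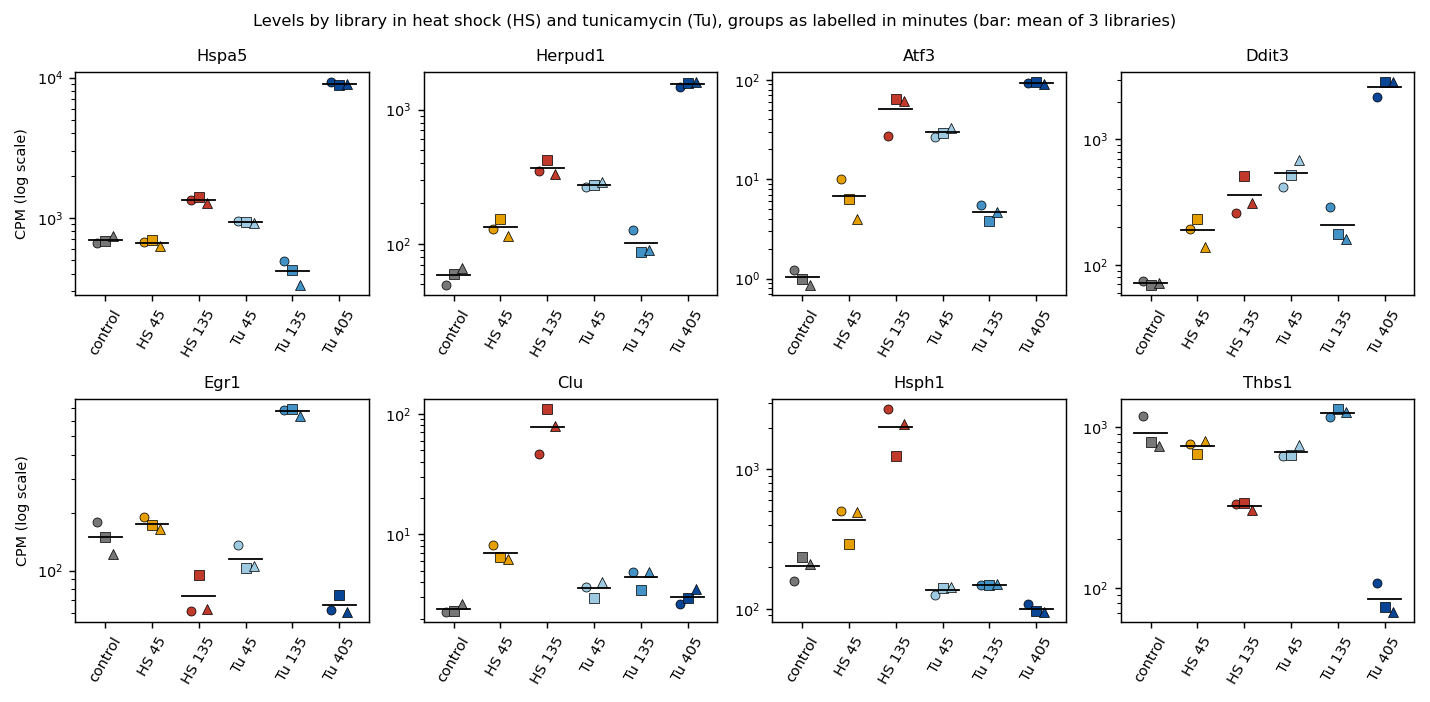
CPM on a log axis, all 18 libraries scaled together, for 8 genes in the 6 labelled groups (control, HS 45, HS 135, Tu 45, Tu 135 and Tu 405 min), with symbols for replicates and a bar at the mean of 3. Hspa5, Herpud1, Atf3 and Ddit3 lie higher under the label Tu 45 than under Tu 135, Egr1 lies highest under Tu 135, and Clu and Hsph1 are highest at HS 135.

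The number of calls rested on single libraries and on the 3 controls that share the estimate of spread. With the 6 heated libraries alone 0 genes passed in edgeR's quasi-likelihood test (658 higher and 823 lower at an unadjusted p under 0.05), whereas edgeR's exact test on the same 6 gave 108 and 91 and DESeq2 on 9 gave 247 and 284. Leaving out control replicate 2 or 3, replicate 1 or 2 at 45 min, or replicate 3 at 135 min left 0 calls, and without replicate 1 or 2 at 135 min the test called 24 higher and 4 lower, and 2 and 0. Without replicate 3 at 45 min there were 113 and 141. In every one of these fits all 116 genes kept their direction. Their libraries at the 2 times did not overlap, which nearly fixes that direction.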

How the data were processed

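Members and gene lists were chosen with earlier results of these data known. Poly(A) RNA was sequenced on an Illumina instrument. The authors aligned reads to mm9 and counted them against RefSeq on the DNAnexus platform; the aligner and any use of strand are not given in the sources used here. The authors deposited estimated counts of reads per gene, rounded here to whole numbers, and RPKM values made by the authors, used here only to rank levels between genes. The 20207 genes were joined by name, and the 12731 with at least 1 read in each of 18 libraries were tested, since the authors removed genes with a count of 0.

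edgeR 4.0.16 in R 4.3.3 was run with TMM scaling and the quasi-likelihood test on 9 libraries (control, HS 45 and HS 135 min), with Benjamini-Hochberg adjustment over all genes tested and a threshold of 0.05. The SE is the log2 fold change divided by the square root of F. A gene levelled off if it passed at 45 min against control and its 95% interval between the times lay within 1 log2 unit. The interaction with tunicamycin used 18 libraries. Alternatives used DESeq2 1.42.0 and sva 3.50.0, other scalings and filters, a GC offset (97.64% of genes had a GC value) and each library left out. The code was tested on simulated data. For single genes the text names the 12 smallest p-values per direction and the 5 largest changes among genes with 50 reads on average and libraries apart, the 4 smallest p-values of each list and course, and genes known from heat shock; of these, those with most bearing are printed, and 1 gene is not reported here. A difference of 3 against 3 cannot go below an exact permutation p of 0.1, so none is given. Closest replicates differed by far more than sampling noise (lowest chi-square per degree of freedom 15.13), so none was counted once. Where reads come from PCR copies, precision covers counting error only.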

Additional observations from a re-analysis of the deposited data

Results flagged for a closer look

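The change from 45 to 135 min differed between HS and tunicamycin, by the test of the difference itself (edgeR's quasi-likelihood test of the interaction, adjusted p from 4.81e-06 to 0.00261), in the 20 named genes taken for the smallest p, 10 in each direction. That all 20 passed follows from this choice. The genes had largely been named by their HS change, which is itself part of the difference. On the log2 scale the HS change exceeded the change between the libraries labelled Tu 45 and Tu 135 min by 5.57 for Atf3, 4.52 for Fgf21, 3.46 for Zfp786, 3.20 for Trib3 and 3.18 for Clu. The excess was 2.95 for Gadd45a, 2.92 for Herpud1, 2.65 for Aff1, 2.19 for Hspa5 and 1.46 for Slc7a1. In the other direction the difference was -3.81 for Egr1, -3.78 for Egr3, -2.79 for Zfp36l2, -2.62 for Dusp1 and -2.04 for Thbs1. It was -2.03 for Hmga2, -2.44 for Cnot6, -1.62 for Nav3, -1.47 for Cyr61 and -1.32 for Dnajc27.

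These differences rest on the order of 2 tunicamycin labels. With the labels at 45 and 135 min exchanged, an alternative chosen after seeing the data, 5 of the 20 passed in the same direction (Clu at 3.79, Cyr61 at -1.62, Dnajc27 at -1.19, Hmga2 at -1.04 and Nav3 at -0.92), 13 did not pass, and 2 passed in the opposite direction, Gadd45a at -1.05 (adjusted p = 0.0399, edgeR) and Egr1 at 1.29 (adjusted p = 0.0233). Herpud1 then gave 0.02 and Atf3 0.25. For Clu, Cyr61 and Dnajc27 the Tu change as labelled was only 0.30, -0.08 and 0.07. Passing in both orders therefore mainly repeats their HS change.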

How the results depend on the processing

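All 116 genes kept their sign in every alternative, a direction that genes with libraries apart nearly fix, and all 99 named genes did. Sizes moved within that sign: Hsp90aa1 ran from 0.82 to 2.17, Ier5l from -1.77 to -0.39 and Myc from 0.07 to 0.56 on the log2 scale. The counts of higher and lower genes moved with the libraries and the model: 0 and 0 with the 6 heated libraries only (658 and 823 at an unadjusted p under 0.05, edgeR), 459 and 446 with all 18, 108 and 91 in edgeR's exact test, 247 and 284 in DESeq2, 95 and 80 with library totals, 955 and 815 with 1 surrogate variable, 302 and 286 with a GC offset. The share of higher genes went from 66.38% to 50.72%, 54.27%, 46.52%, 54.29%, 53.95% and 51.36% in the 6 of these that gave calls, and to 51.48% (87 and 82 genes) without HS 45 min replicate 3 and HS 135 min replicate 1, chosen after seeing the data. With each library left out in turn the counts ran from 0 to 113 higher and from 0 to 141 lower.

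Same-numbered HS 45 and HS 135 min libraries deviated together with correlations of -0.62, 0.75 and 0.42, so the numbers were not taken to pair cultures. With the replicate block 0 higher and 0 lower genes passed (798 and 695 at an unadjusted p under 0.05, edgeR), and with the block and the GC offset 113 and 64.

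With a limit of 0 on the 45 min change the courses held 54, 0, 23, 32, 0 and 7 genes (rose further, late rise, recovered, fell back, late fall, fell further). With a limit of 1 they held 8, 68, 1 and 6 in the first 4 and 0 in the last. With 18 libraries they held 107, 278, 74, 111, 307 and 28, and 850 levelled off.

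The counts of the interaction with tunicamycin were 222 and 180 with 12 libraries and 115 and 111 with the Tu labels exchanged, 574 and 686 in DESeq2 and 373 and 398 with DESeq2's size factors, so that lower genes outnumbered higher ones in both, and leaving out each library gave 247 to 1023 higher and 152 to 857 lower. The cause of these moves was not tested.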

Other observations

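Genes with known roles in cilia and flagella were among the rises with the smallest p. Mns1, an axonemal protein of sperm tails, had 4.03 to 8.18 CPM in the control, 13.2, 13 and 10.4 CPM at 45 min and 52.5, 68.8 and 62.5 CPM at 135 min (log2 fold change 2.33 ± 0.29, adjusted p = 0.0237, edgeR). Dnahc10, an axonemal dynein heavy chain, had 0.164, 0.0416 and 0.0832 CPM at 45 min and 0.936, 1.88 and 1.11 CPM at 135 min (3.72 ± 0.52, adjusted p = 0.0301). No list of such genes was tested. Aox1, aldehyde oxidase, went from 3.15, 1.91 and 3.61 CPM to 14.2, 13.8 and 10 CPM (2.13, adjusted p = 0.0321), and Serpina3h, a serine protease inhibitor gene, from 0.401, 0.416 and 0.277 CPM to 1.98, 2.5 and 2.02 CPM (2.57, adjusted p = 0.0301).

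Of 16 circadian clock genes 0 passed in edgeR, and 6 were higher and 0 lower at an unadjusted p under 0.05 (6.72% and 6.63% of all genes). Per2, a clock repressor, was at 15.3, 16.3 and 7.92 CPM and then at 30.9, 66.9 and 50 CPM (1.90 ± 0.37, adjusted p = 0.0534). Of 12 Kruppel-like factors, 7 Zfp36 and BTG decay factors, 14 TGF-beta and BMP targets, 31 histone, 24 DNA replication and 13 Bcl2 family genes 0 passed in edgeR, with 1, 1, 1, 3, 0 and 2 higher and 2, 2, 2, 3, 1 and 2 lower at an unadjusted p under 0.05. On the list of 6 heat shock factors and their binding proteins 0 passed. By that measure 2 were higher, Hsf2bp and Hsbp1, both genes of binding proteins and not of the factors themselves. Usp14, a deubiquitinase of the proteasome, was at 52, 57.2 and 35.1 CPM and then at 16.8, 18.5 and 19.2 CPM (-1.41, adjusted p = 0.0785), and on its list of 13 ubiquitin genes and partners 1 rose, Zfand2a.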
